A study of Homo sapiens with 6 samples.

Results

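The genes described here are those that code for histone proteins, the proteins around which DNA is wound. They were taken by name from the deposited count table: every gene of the HIST1, HIST2, HIST3 and HIST4 clusters, every gene whose symbol begins with H2AF or H3F3, and the linker histone genes H1F0 and H1FX. This gave 88 of the 26334 genes in the table, of which 73 were cluster (HIST) genes and 15 were replacement histone genes. Of the HIST genes, 56 lay on chromosome 6, 16 on chromosome 1 and 1 on chromosome 12. RefSeq lists 4 of the 88 (HIST1H2APS1, HIST2H2BA, HIST2H2BC and H3F3AP4) as pseudogenes.

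The libraries came from MCF10DCIS.com, an established human breast cancer cell line, and addressed what silencing of WDR5, a shared subunit of the complexes that methylate histone H3 at lysine 4, does to its transcriptome. The shLuc group (3 libraries) carried a hairpin against luciferase in the vector named pRSI-U6-shLuc-UbiC-TagRFP-2A-Puro, and the shWDR5 group (3 libraries) carried the same vector with a WDR5 hairpin; both were selected with puromycin, and the U6 promoter drives the hairpin in every infected cell. The study's methods describe pooled WDR5 hairpins for this line, so a shWDR5 library is a mixed infected population and not a clone. Total counts ran from 38218108 to 57640167 per library, nothing in the labels says that the 3 libraries of a group came from separate cultures, and the p-values below measure only the spread between these libraries, which may be technical.

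WDR5 itself stood at 52.6, 48.5 and 51.3 CPM (read counts scaled to a common library size) in shLuc and at 23.4, 24.4 and 20.8 CPM in shWDR5. It was 2.22-fold lower in shWDR5 (log2 fold change -1.15 ± 0.07 standard error, SE, adjusted p = 8.7e-07, edgeR quasi-likelihood test with Benjamini-Hochberg adjustment), as the labels have it. All 7 basal breast epithelial markers examined were measured, with a summed level of 4046 to 4247 CPM in shLuc and 6254 to 7027 CPM in shWDR5. The members did not move together: KRT5, KRT14, KRT17 and TP63 were higher (log2 fold changes 0.91, 1.29, 0.94 and 0.42), while EGFR and the general epithelial genes CDH1 and EPCAM were lower (-0.27, -1.03 and -0.33). Of the markers of other cell types, the 4 fibroblast genes summed to 21.6 to 23.7 CPM against 14.8 to 17.8 CPM, the 3 immune genes to 10.5 to 13 CPM against 10.4 to 12.4 CPM with CD3E at 0 in every library, and the 3 endothelial genes to 7.58 to 7.93 CPM against 4.71 to 5.36 CPM. The part of these shifts in the histone gene results was not tested.

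Cells make most of their core and linker histones during S phase, from clustered intronless genes. The mRNAs of these replication-dependent genes are peculiar in that they end not in a poly(A) tail but in a short stem-loop, which is bound by SLBP and which guides their processing and decay. Replacement histones such as H3.3, H2A.Z and H1.0 are made throughout the cell cycle from genes elsewhere in the genome, whose mRNAs are polyadenylated in the usual way. Replication-dependent genes can also give polyadenylated mRNAs that run past the stem-loop, in particular in cells that leave the cell cycle. The libraries were built from RNA bound to oligo-dT, which captures poly(A) tails, so a level of a HIST gene here is that of RNA that oligo-dT retained and not of its whole mRNA pool.

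The stem-loop that sets the HIST genes apart is shown first. It was searched for in the GENCODE transcripts (GRCh38) on the coding strand as 16 bases: the stem GGNNNT (N being any base), a loop of 4 bases that begins with TT, and ANNNCC, with all 6 bases of the stem paired. It was found in 30 of the 73 HIST genes (41.1%) and, of the 15 replacement genes, in H2AFX alone, while 56 of 19702 protein-coding genes (0.284%) held it and 31 of those 56 were histone genes of the present set. Of the 43 HIST genes without a match, 33 have only their coding part annotated, so that the 3′ end was not searched. The stem is in capitals and the loop in lower case.
HIST2H2BE and 16 other HIST genes: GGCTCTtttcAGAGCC
HIST1H2BD and 4 other HIST genes: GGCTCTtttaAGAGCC
HIST1H4H and 4 other HIST genes: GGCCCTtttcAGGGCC
HIST1H4I and 2 other HIST genes: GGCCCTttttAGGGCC
H2AFX: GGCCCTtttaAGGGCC

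The H4 genes and H2AFX thus shared a stem, and the H2A, H2B and H3 genes with a match shared another. The reach past the stem-loop was taken on the genome, introns included, to the end of the annotated transcript that runs farthest. The HIST2 duplicates whose exons coincide with a partner gene were left out. Among the other HIST genes with a stem-loop, the median reach was 1059 bases for the 17 that were detected well enough to be tested. It was 86 bases for the 7 that were not. The reach was over 100 bases in 14 of those 17 and in 3 of those 7. The comparison leaves out the tested HIST genes without a match. Among them are HIST1H2BK and HIST1H1C, for which only the coding part is annotated. Reads were counted on the deposited hg19 gene models, which can be shorter than the reach. The model of HIST1H2BG holds 445 bases against a reach of 1059, and that of HIST1H2BH 425 against 1640. Whether reach and detection are linked was not tested. HIST2H2BE, whose stem-loop lies at chr1:149886188-149886203 (GRCh38, minus strand) with 1729 bases of transcript annotated past it, has the longest gene model of the HIST genes tested, 2223 bases.

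The stretches before the start sites of the 5 HIST genes that the comparison turned on are given next, from RefSeq (GRCh38.p14). Both genes that carry most of the HIST reads, HIST1H1C and HIST1H2BK, are shown, then the pair HIST2H2BE and HIST2H2AC, which share a single promoter region read in opposite directions, and HIST1H2BH. Capitals mark 4 motifs, each searched on both strands. The box that places the start of transcription was searched as TATAAA, and the box bound by the factor NF-Y as CCAAT. The AC box known from H1 promoters was searched as AAACACA. The octamer known from H2A and H2B promoters, to which OCT1 binds, was searched as ATTTGCAT. Where 2 motifs overlap the capitals run together.
HIST1H1C, chr6:26056471-26056720, minus strand: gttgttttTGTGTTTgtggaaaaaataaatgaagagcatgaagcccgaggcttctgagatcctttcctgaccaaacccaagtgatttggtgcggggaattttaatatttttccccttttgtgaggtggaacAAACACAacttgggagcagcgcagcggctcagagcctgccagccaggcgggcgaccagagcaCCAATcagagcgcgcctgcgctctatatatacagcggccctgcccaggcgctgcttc
HIST1H2BK, chr6:27146859-27147105, minus strand: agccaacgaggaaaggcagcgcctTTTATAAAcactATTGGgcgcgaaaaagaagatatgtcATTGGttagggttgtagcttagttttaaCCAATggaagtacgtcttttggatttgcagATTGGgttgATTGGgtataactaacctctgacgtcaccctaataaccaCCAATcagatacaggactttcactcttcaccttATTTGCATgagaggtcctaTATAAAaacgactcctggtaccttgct
HIST2H2BE, chr1:149886683-149886917, minus strand: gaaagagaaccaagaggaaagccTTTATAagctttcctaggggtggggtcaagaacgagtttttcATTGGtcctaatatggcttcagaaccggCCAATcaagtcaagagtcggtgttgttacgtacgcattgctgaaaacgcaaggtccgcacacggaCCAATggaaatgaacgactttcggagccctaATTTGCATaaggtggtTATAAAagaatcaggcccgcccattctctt
HIST2H2AC, chr1:149886683-149886917, plus strand: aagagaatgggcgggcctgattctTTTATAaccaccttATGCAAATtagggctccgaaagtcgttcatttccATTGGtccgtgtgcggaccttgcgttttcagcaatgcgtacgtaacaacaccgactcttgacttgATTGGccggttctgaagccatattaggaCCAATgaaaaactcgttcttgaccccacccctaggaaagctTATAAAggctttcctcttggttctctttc
HIST1H2BH, chr6:26251364-26251613, plus strand: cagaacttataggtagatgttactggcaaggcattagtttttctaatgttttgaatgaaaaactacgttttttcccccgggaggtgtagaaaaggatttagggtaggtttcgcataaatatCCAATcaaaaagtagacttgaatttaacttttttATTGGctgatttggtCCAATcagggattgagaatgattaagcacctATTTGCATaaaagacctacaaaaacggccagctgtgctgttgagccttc

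RefSeq promoters were matched for 60 HIST and 12 replacement genes. The TATAAA letters were present in 68.3% of the HIST promoters and in 14.0% of the promoters of 27305 genes, and the ATTTGCAT letters in 35.0% against 2.19%. The octamer was found in 11 of 16 H2A and 9 of 13 H2B promoters, in 1 of 12 H3 promoters and in no H1 or H4 promoter of the HIST genes. The AAACACA letters were found in 6 of 6 H1, 1 of 16 H2A and 2 of 12 H3 promoters of the HIST genes and in no H2B or H4 promoter. They were also in 1 of 12 replacement promoters and in 6.94% of all genes. The CCAAT letters did not set the classes apart, with 83.3% of the HIST and 83.3% of the replacement promoters holding them against 39.7% of all genes. These matches describe letters in a window and say nothing of binding.

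The HIST genes as a class were higher in shWDR5. Summed over all 73 genes, whether tested or not, their level was 92.5, 88.9 and 102 CPM in the 3 shLuc libraries and 141, 133 and 140 CPM in the 3 shWDR5 libraries. Every shWDR5 library was above every shLuc library, and the means were 94.5 ± 6.77 CPM and 138 ± 4.55 CPM (SD, n = 3 each), a ratio of 1.46. The replacement sum moved the other way, from 1841 ± 18.1 CPM to 1661 ± 28.96 CPM (SD, n = 3 each), a ratio of 0.902. H1F0 alone fell from a mean of 262 to 77.4 CPM, more than the whole sum fell, so the other replacement genes together did not fall. By type, the replacement H3 sum rose from 660 to 745 CPM and the replacement H2A sum fell from 848 to 784 CPM. For every 100 reads of replacement genes there were 5.13 ± 0.376 HIST reads in shLuc and 8.30 ± 0.405 in shWDR5 (SD, n = 3 each). Because these are bulk libraries, a change in the number of cells that express a gene and a change in the RNA per cell cannot be told apart.

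Of the 73 HIST genes, 26 had enough reads to be tested. At an adjusted p below 0.05, 13 of these were higher in shWDR5 (50% of those tested, against 26.6% of all 16117 genes tested), 2 were lower (7.69%, against 29.9% of all genes) and 11 were not called. The median log2 fold change was 0.55 over the 26 HIST genes and -0.01 over all genes tested, and it was above 0 in 24 of the 26. In 16 HIST genes every shWDR5 library lay above every shLuc library, and in 2 every one lay below (all genes: 29.9% and 32.4%). When an absolute log2 fold change of at least 0.6 was required as well, which is the fold limit of the study's rule without its limit on RPKM, 10 HIST genes were higher and 2 lower, against 10.9% and 12% of all genes. Of the 26, 19 were above the count filter in all 6 libraries (10 higher, 2 lower). The other 7 were HIST4H4, HIST1H4H, HIST1H2BN, HIST1H1E, HIST1H2AI, HIST1H4E and HIST3H2BB. Each was above the filter in more shWDR5 than shLuc libraries, HIST4H4 in shWDR5 libraries only, and each had a log2 fold change above 0. These 7 thus entered the test with the help of the group in which they were high, and they count in the median and in the 24 above 0.

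**Figure D1:**
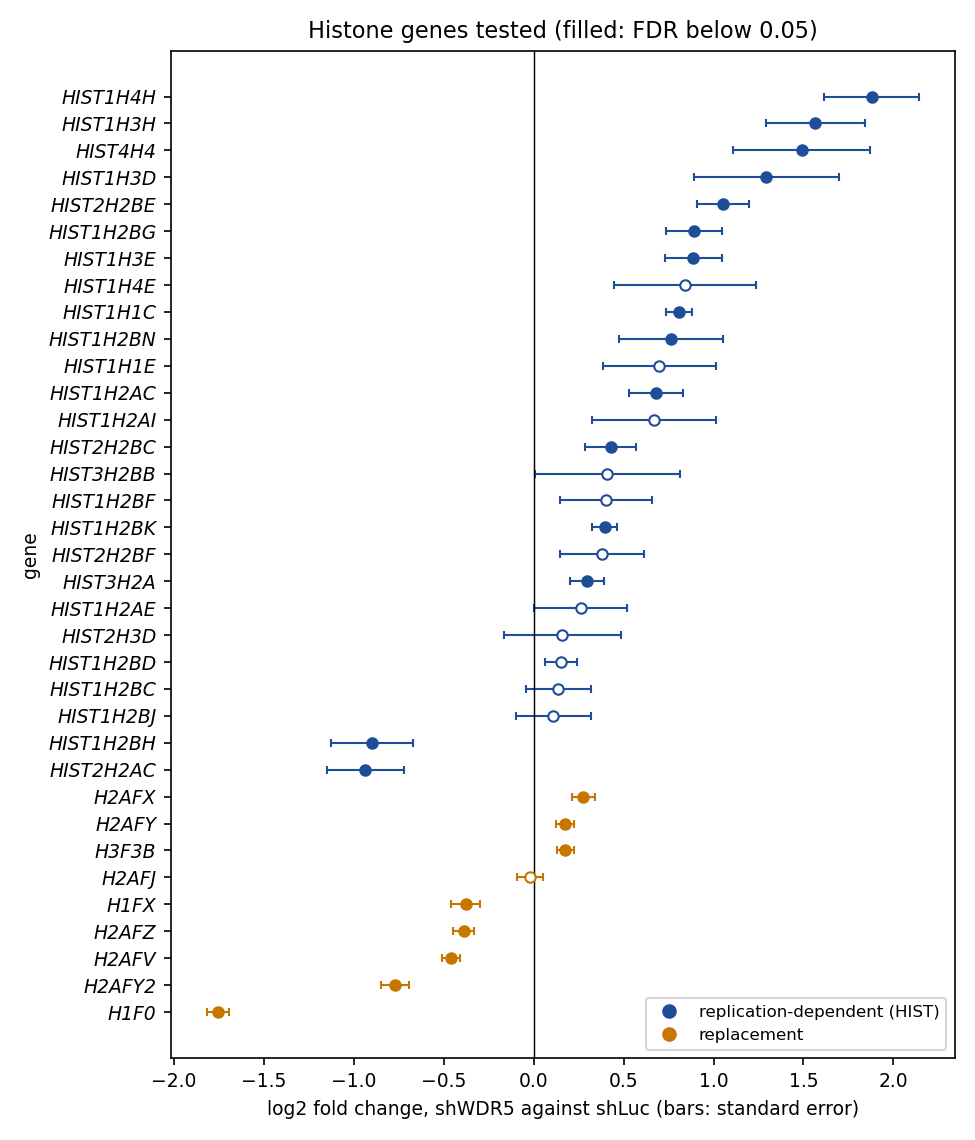
Log2 fold change of shWDR5 against shLuc for the 26 HIST genes (blue) and 9 replacement genes (orange) tested, with the standard error as bars; filled points passed an adjusted p of 0.05. The HIST genes lie to the right of 0 except HIST1H2BH and HIST2H2AC, while H1F0, at -1.76, is the farthest to the left.

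Divided by histone type, the sum over HIST genes rose by a ratio of 2.04 for H4 (15 genes), 1.80 for H3 (14 genes), 1.74 for H1 (6 genes), 1.37 for H2A (18 genes) and 1.35 for H2B (20 genes). The H1, H3 and H4 ratios rest on few genes. HIST1H1C gave 19.8 of the 20.2 CPM of H1 in shLuc and 34.6 of 35.2 CPM in shWDR5. HIST1H4H went from 0.264 to 1.01 CPM, within H4 sums of 1.06 and 2.16 CPM. HIST1H3E went from 1.23 to 2.27 CPM, within H3 sums of 2.65 and 4.76 CPM. The types were far from equal in level, since H2B genes gave 65.7% of the HIST sum in shLuc and 61.0% in shWDR5, H1 genes 21.4% and 25.6%, and H4 genes 1.12% and 1.57%. HIST1H2BK and HIST1H1C alone held 68.9% of all HIST reads and the 5 genes with the most reads 83.9%. In the nucleosome the core types are present in equal number, whereas the sums of their RNA in these poly(A)-selected libraries were not equal.

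The linker histones, which bind the DNA between nucleosomes, showed the widest divergence between the classes. H1F0 codes for H1.0, the replacement linker histone that accumulates in cells that have stopped dividing or differentiated. It stood at 262, 270 and 253 CPM in shLuc and at 74.1, 83.4 and 74.8 CPM in shWDR5. The groups were far apart, and the level was 3.38-fold lower in shWDR5 (log2 fold change -1.76 ± 0.06 SE, adjusted p = 4.4e-08, edgeR quasi-likelihood test with Benjamini-Hochberg adjustment), the largest fall among the 35 histone genes tested. H1FX, the gene of the replacement linker histone H1.10 (H1X), stood at 80.5, 68.5 and 64.1 CPM against 55.9, 55.6 and 52.5 CPM. Its groups did not overlap either, and it was 1.30-fold lower (log2 -0.38 ± 0.08 SE, adjusted p = 0.0027, edgeR).

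HIST1H1C, the gene of the replication-dependent subtype H1.2, went in the opposite direction to H1F0. It stood at 19.0, 19.7 and 20.6 CPM in shLuc and at 36.8, 32.7 and 34.4 CPM in shWDR5. The spread within each group was small beside the gap between them, and the level was 1.75-fold higher (log2 0.81 ± 0.07 SE, adjusted p = 5.8e-06, edgeR), the lowest adjusted p of any HIST gene. HIST1H1E (H1.4) was at 16, 10 and 6 reads against 18, 20 and 22 reads, with groups that did not overlap, and was not called (log2 0.70 ± 0.31 SE, adjusted p = 0.082, edgeR); leaving out shLuc replicate 1 gave 1.01 and an adjusted p of 0.043, and leaving out shLuc replicate 3 gave 0.45 and an adjusted p of 0.25. The other HIST1H1 genes (HIST1H1A, HIST1H1B, HIST1H1D and the testis subtype HIST1H1T) had too few reads to test.

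Per length, as RPKM, which is the CPM per kilobase of gene model, the order of the linker histone levels changed. In shLuc it was H1F0 (112 ± 3.79), H1FX (47.1 ± 5.66) and HIST1H1C (27.0 ± 1.11), and in shWDR5 HIST1H1C (47.3 ± 2.85), H1FX (36.3 ± 1.24) and H1F0 (33.2 ± 2.22; SD, n = 3 each). In shWDR5 the lowest H1FX library lay within the range of the H1F0 libraries, so that these neighbours were not separated. The ratio of HIST1H1C to H1F0 per length was 0.231, 0.232 and 0.260 in shLuc and 1.58, 1.25 and 1.47 in shWDR5, a 5.94-fold difference of the means. The HIST1H1C level is that of RNA retained by oligo-dT. The order and the ratio are therefore not those of whole mRNA amounts.

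**Figure D2:**
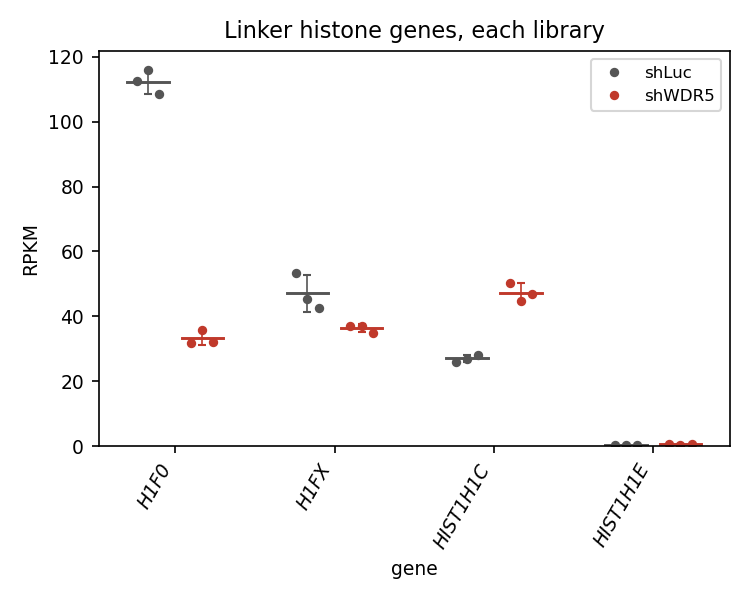
Level of the 4 linker histone genes tested in each library, as RPKM; points are libraries, horizontal lines are group means and bars are the SD (n = 3). H1F0 falls from 112 to 33.2 while HIST1H1C rises from 27.0 to 47.3 and HIST1H1E stays near 0.

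The H2B genes gave most of the HIST reads. HIST1H2BK (chr6:27106072-27114637, hg19, minus strand) stood at 45.2, 42.1 and 49.6 CPM in shLuc and at 59.4, 58.4 and 62.2 CPM in shWDR5. The groups did not overlap, and it was 1.31-fold higher (log2 0.39 ± 0.07 SE, adjusted p = 0.00071, edgeR). HIST2H2BE (chr1:149856010-149858232, hg19, minus strand) stood at 4.33, 4.07 and 6.42 CPM against 10.6, 9.80 and 10.3 CPM. It was 2.07-fold higher, the largest rise among the H2B genes tested (log2 1.05 ± 0.14 SE, adjusted p = 0.00013, edgeR), with shLuc replicate 3 the highest of its group. HIST1H2BG, at 47, 33 and 44 reads against 90, 90 and 85 reads, was 1.85-fold higher (log2 0.89 ± 0.16 SE, adjusted p = 0.00073, edgeR), also without overlap.

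The remaining H2B calls were weaker. HIST2H2BC, listed as a pseudogene, was at 1.50, 1.24 and 1.24 CPM against 1.81, 1.90 and 1.65 CPM (log2 0.43 ± 0.14 SE, adjusted p = 0.024, edgeR). Its call did not survive the loss of shLuc replicate 2 (adjusted p = 0.081), shLuc replicate 3 (0.079), shWDR5 replicate 1 (0.053) or shWDR5 replicate 2 (0.083), nor the DESeq2 test (0.082). HIST1H2BN, with 14, 9 and 7 reads against 22, 21 and 16 reads, was called narrowly (log2 0.76 ± 0.29 SE, adjusted p = 0.044, edgeR), and the call was lost without shLuc replicate 2 (0.095) or 3 (0.13), without shWDR5 replicate 1 (0.14), 2 (0.071) or 3 (0.059), and in DESeq2 (0.16).

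Several H2B genes of similar level showed no call. HIST1H2BD stood at 4.84, 5.05 and 5.08 CPM against 5.33, 5.31 and 6.00 CPM, without overlap but with a log2 fold change of only 0.15 (95% interval -0.10 to 0.40). HIST1H2BC and HIST1H2BJ overlapped between the groups, with log2 fold changes of 0.14 (95% interval -0.37 to 0.64) and 0.11 (-0.47 to 0.69). The intervals of HIST1H2BC and HIST1H2BJ reach well past the log2 fold change of HIST1H2BK (0.39), so a difference of that size was not excluded for them. That of HIST1H2BD ends at 0.40, beside this value. The intervals are wider than the test implies, so they do not decide the question for HIST1H2BD. HIST1H2BF, HIST2H2BF and HIST3H2BB had log2 fold changes of 0.40, 0.38 and 0.41 on 5 to 34 reads per library and were not called.

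HIST1H2BH (chr6:26251879-26252303, hg19, plus strand) was the exception among H2B genes. It had 32, 31 and 29 reads in shLuc and 19, 25 and 13 reads in shWDR5, all shWDR5 libraries being lower although shWDR5 replicate 2 was the most deeply sequenced. It was 1.87-fold lower (log2 -0.90 ± 0.23 SE, adjusted p = 0.0065, edgeR). In its promoter, printed above, the letters CCAAT and ATTTGCAT were found and TATAAA was not. The lack of TATAAA was not particular to it. Among genes called higher, HIST1H1C lacked these letters and HIST1H2BK held them, and HIST2H2AC, called lower, held them too.

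Among H2A genes, HIST1H2AC stood at 3.54, 2.71 and 4.26 CPM in shLuc and at 6.35, 5.45 and 5.10 CPM in shWDR5. The groups did not overlap, and it was 1.60-fold higher (log2 0.68 ± 0.15 SE, adjusted p = 0.0029, edgeR). HIST3H2A, at 3.08, 3.17 and 3.00 CPM against 3.69, 3.77 and 3.88 CPM, was 1.23-fold higher (log2 0.29 ± 0.09 SE, adjusted p = 0.021, edgeR). Despite its clear separation the call was lost without shLuc replicate 3 (0.058), shWDR5 replicate 2 (0.052) or shWDR5 replicate 3 (0.065), and in DESeq2 (0.079). HIST1H2AE (log2 0.26) and HIST1H2AI (0.67) were not called, and 13 further H2A genes were not tested.

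HIST2H2AC (chr1:149858525-149858961, hg19, plus strand) was the only HIST gene of type H2A that was called lower. It had 35, 28 and 25 reads in shLuc and 15, 23 and 15 reads in shWDR5, without overlap, and was 1.91-fold lower (log2 -0.94 ± 0.21 SE, adjusted p = 0.0036, edgeR). Its neighbour HIST2H2BE starts 293 bases away on the other strand and was 2.07-fold higher, so the 2 genes of a shared promoter region were called in opposite directions. There were 13 pairs of HIST genes that faced away from each other with starts 224 to 347 bases apart, and in 5 of them both genes were tested. This comparison was made after their values had been seen. HIST1H2BF is counted in 2 of the pairs, with HIST1H2AD and with HIST1H3D, whose models start at the same base and share 435 exon bases. In HIST1H2BC and HIST1H2AC the log2 fold changes were 0.14 and 0.68, in HIST1H2BG and HIST1H2AE 0.89 and 0.26, in HIST3H2A and HIST3H2BB 0.29 and 0.41, and in HIST1H3D and HIST1H2BF 1.29 and 0.40. The table's model of HIST2H2BE holds 2223 bases and that of HIST2H2AC 437 bases.

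**Figure D3:**
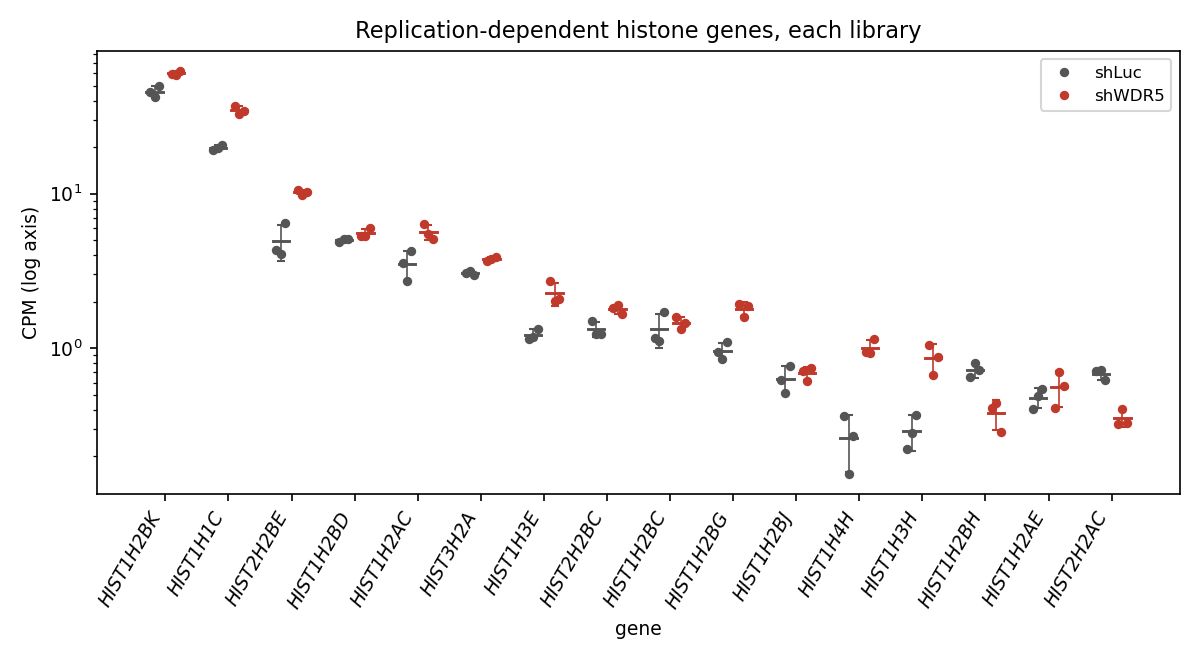
Level of 16 HIST genes in each library, in CPM on a log axis, in order of mean level; points are libraries, horizontal lines are group means and bars are the SD (n = 3). HIST1H2BK and HIST1H1C lie far above the rest, and HIST1H2BH and HIST2H2AC are the genes with shWDR5 below shLuc.

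The H3 and H4 genes of the clusters were scarce in these libraries. Of these, 4 of 14 and 3 of 15 were tested, and 3 and 2 were called higher (26.6% of all genes tested were called higher). The 2 H4 genes called, HIST1H4H and HIST4H4, entered the test with the help of the shWDR5 group. HIST1H4H had 18, 6 and 11 reads in shLuc and 44, 53 and 52 reads in shWDR5. The groups were well apart, and it was 3.68-fold higher (log2 1.88 ± 0.26 SE, adjusted p = 0.00016, edgeR), the largest rise of any histone gene tested. It was above the count filter in 2 shLuc libraries and in 3 shWDR5 libraries. HIST1H3H had 11, 11 and 15 reads against 49, 38 and 40 reads and was 2.96-fold higher (log2 1.57 ± 0.28 SE, adjusted p = 0.00072, edgeR). HIST1H3E, the H3 gene with the highest level, stood at 1.15, 1.19 and 1.34 CPM against 2.72, 2.02 and 2.07 CPM and was 1.85-fold higher (log2 0.89 ± 0.16 SE, adjusted p = 0.00082, edgeR). None of the 3 overlapped between the groups.

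HIST4H4, the only HIST gene on chromosome 12, had 10, 2 and 6 reads against 15, 24 and 20 reads (log2 1.49 ± 0.38 SE, adjusted p = 0.0069, edgeR). HIST1H3D had 12, 10 and 13 reads against 50, 22 and 27 reads (log2 1.29 ± 0.40 SE, adjusted p = 0.019, edgeR), and shWDR5 replicate 1 set much of its size: without that library the log2 fold change was 0.82 (adjusted p = 0.056), and without shLuc replicate 2 it was 1.25 (0.054). Of the exon bases of HIST1H3D, 47.2% are shared with HIST1H2AD, which had no read. HIST1H4E, at 7, 8 and 9 reads against 23, 18 and 9 reads, was not called (log2 0.84 ± 0.39 SE, adjusted p = 0.094, edgeR) and gave 1.08 with an adjusted p of 0.034 without shWDR5 replicate 3 but 0.49 with an adjusted p of 0.34 without shWDR5 replicate 1. HIST2H3D overlapped between the groups, with a log2 fold change of 0.16.

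The other 47 HIST genes were at the floor of detection. Together they held 647 of 32550 HIST reads (1.99%), none had a mean above 0.179 CPM, and 14 had no read in any library. Of these 14, HIST2H2AA3 and HIST2H2AA4, HIST2H3A and HIST2H3C, and HIST2H4A and HIST2H4B are duplicates that share all their exon bases with their partner in the table, and HIST1H2AD shares 85.3% with HIST1H3D. Their zeros therefore cannot be read as absence of the RNA. The genes with reads included HIST1H4C, HIST1H3B, HIST1H1B and HIST1H2BM, with 20, 16, 9 and 3 reads over all 6 libraries.

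The replacement genes were the main source of histone RNA in these libraries and split by variant. Of the 15, 9 were tested, of which 3 were higher, 5 lower and 1 not called (all genes: 26.6% higher and 29.9% lower), with a median log2 fold change of -0.38 against -0.01 over all genes. With the fold limit of 0.6 added, none was higher (10.9% of all genes) and H1F0 and H2AFY2 were lower (12% of all genes). All 9 were above the count filter in every library.

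H3F3B, a gene of H3.3, the replacement H3 laid down outside replication, was the most abundant by reads. It stood at 649, 652 and 680 CPM in shLuc and at 739, 753 and 744 CPM in shWDR5. The groups did not overlap, but the difference was small, 1.13-fold (log2 0.17 ± 0.05 SE, adjusted p = 0.0097, edgeR), and scaling to library totals alone gave 0.12 with an adjusted p of 0.057. The second gene of the same protein, H3F3A, was listed with 1 read over all libraries. Of its exon bases, 98.1% are shared in the annotation with the pseudogene H3F3AP4, itself without a read, so its level was not measured. H3F3C had 26 reads in all and was not tested.

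The genes of H2A.Z, the variant found at promoters, were both lower. H2AFZ stood at 361, 342 and 352 CPM against 259, 289 and 257 CPM and was 1.31-fold lower (log2 -0.39 ± 0.06 SE, adjusted p = 0.00027, edgeR). H2AFV stood at 83.9, 83.4 and 84.8 CPM against 61.9, 60.8 and 60.5 CPM and was 1.38-fold lower (log2 -0.46 ± 0.05 SE, adjusted p = 3.0e-05, edgeR). Neither overlapped between the groups. The ratio of H2AFV to H2AFZ per length was 0.0481 ± 0.00121 in shLuc and 0.0459 ± 0.00309 in shWDR5 (SD, n = 3 each), a difference within the spread of the libraries.

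The genes of macroH2A, the large variant with a globular domain that is enriched on silent chromatin, moved in opposite directions. H2AFY (macroH2A1) stood at 320, 317 and 304 CPM against 360, 353 and 348 CPM and was 1.13-fold higher (log2 0.17 ± 0.05 SE, adjusted p = 0.011, edgeR). H2AFY2 (macroH2A2) stood at 22.1, 18.7 and 19.9 CPM against 11.5, 11.7 and 12.4 CPM and was 1.71-fold lower (log2 -0.77 ± 0.08 SE, adjusted p = 2.0e-05, edgeR). The groups did not overlap for either gene. Per length there were 0.0637 ± 0.00500 parts of H2AFY2 to H2AFY in shLuc and 0.0331 ± 0.00180 in shWDR5 (SD, n = 3 each). Of the exon bases of H2AFY, 8.12% are shared with C5orf66.

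H2AFX, whose product is phosphorylated at DNA breaks, is the replacement gene with the stem-loop printed above. It stood at 54.3, 47.5 and 50.1 CPM in shLuc and at 63.5, 59.0 and 61.5 CPM in shWDR5, without overlap, and was 1.21-fold higher (log2 0.28 ± 0.07 SE, adjusted p = 0.0044, edgeR). H2AFJ overlapped between the groups, at 29.6, 28.9 and 25.4 CPM against 28.1, 28.0 and 26.5 CPM, and its log2 fold change of -0.02 had a 95% interval of -0.23 to 0.18. The 3 H2AFB genes had no read in any library, and at least 87.0% of the exon bases of each are shared with the others.

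**Figure D4:**
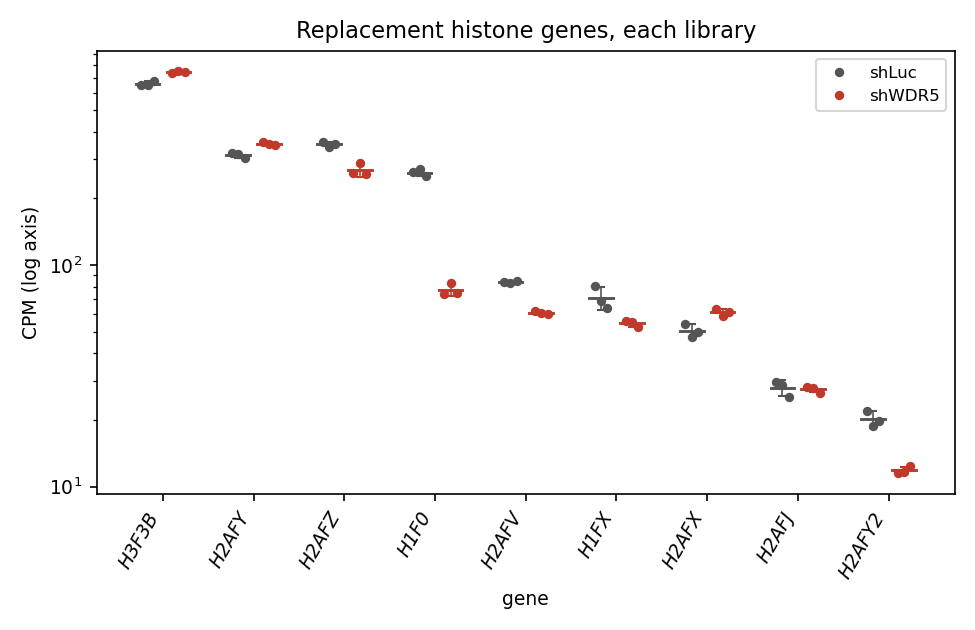
Level of the 9 replacement histone genes tested in each library, in CPM on a log axis, in order of mean level; points are libraries, horizontal lines are group means and bars are the SD (n = 3). H1F0 shows the widest gap, from 262 to 77.4 CPM, and H2AFJ is the gene whose groups overlap.

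Genes that make, process, carry or exchange histones were examined beside the histone genes. All 44 were tested, and 4 were higher, 26 lower and 14 not called (all genes: 26.6% higher and 29.9% lower), with a median log2 fold change of -0.29 against -0.01. Among the chaperones and assembly factors, HJURP, which carries the centromeric H3 variant CENP-A, was lower by 1.91-fold (log2 -0.93 ± 0.05 SE, adjusted p = 4.8e-07, edgeR). NASP, a carrier of H3, H4 and linker histones, was 1.81-fold lower (log2 -0.85 ± 0.05 SE), CHAF1B, a subunit of the replication-coupled assembly factor CAF-1, 1.69-fold lower (log2 -0.76 ± 0.07 SE), and HAT1, which acetylates new H4, 1.62-fold lower (log2 -0.70 ± 0.06 SE). CENPA itself was lower, with a log2 fold change of -0.72 ± 0.08 SE. HIRA, which lays down H3.3, was 1.30-fold higher (log2 0.38 ± 0.06 SE, adjusted p = 0.00033, edgeR). The higher calls of SRCAP and CABIN1 (log2 0.19 each) were lost when some single libraries were left out, with adjusted p up to 0.10 for SRCAP without shWDR5 replicate 1 and up to 0.14 for CABIN1 without the same library.

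The factors that switch on histone genes or process their mRNA were, among those named here, lower or not called except for ZNF473. SLBP, which binds the stem-loop, stood at 46.4, 48.5 and 49.3 CPM in shLuc and at 44.6, 48.4 and 51.3 CPM in shWDR5, with a log2 fold change of 0.00 ± 0.07 SE (adjusted p = 0.99, edgeR). NPAT, the coactivator of histone genes, was not called (log2 -0.13 ± 0.10 SE). CDK2, the kinase that activates NPAT, was 1.69-fold lower (log2 -0.76 ± 0.06 SE), LSM11 of the U7 particle was lower by a log2 fold change of -0.61 ± 0.07 SE, CASP8AP2 (FLASH) by -0.49 ± 0.10 SE and ERI1, an exonuclease that trims the stem-loop, by -0.64 ± 0.12 SE. ZNF473, a zinc finger protein that associates with the U7 particle, was 1.20-fold higher (log2 0.26 ± 0.07 SE, adjusted p = 0.0076, edgeR).

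Genes whose mRNAs mark S phase or DNA replication were mostly lower. Of 24 genes, all tested, 1 was higher, 21 were lower and 2 were not called (all genes: 26.6% higher and 29.9% lower), with a median log2 fold change of -0.65 against -0.01 over all genes tested and 0.55 over the HIST genes. Their summed level was 2225 to 2235 CPM in shLuc and 1326 to 1392 CPM in shWDR5. MCM5, a subunit of the replicative helicase, was 2.36-fold lower (log2 -1.24 ± 0.06 SE, adjusted p = 1.8e-07, edgeR), and RRM1 and RRM2, which supply deoxynucleotides, were 2.07-fold and 1.92-fold lower. CCNE1, the cyclin that drives entry into S phase, was the gene that was higher (log2 0.48 ± 0.09 SE, adjusted p = 0.00099, edgeR). The part of the S phase genes' shift in the histone gene results was not tested, and no library was made without poly(A) selection.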

How the data were processed

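Poly(A) RNA of 3 shLuc and 3 shWDR5 samples of MCF10DCIS.com was sequenced on an Illumina HiSeq after oligo-dT purification. The authors deposited read counts per gene (unnormalized, hg19/GRCh37), made according to the submitters' processing notes with TopHat2 2.1.0 and featureCounts. Whether counting used strand, or kept reads that map to several places, is not given in the sources used here, so levels of near-identical histone genes are uncertain. A second deposited table held the authors' own edgeR 3.2.2 comparison and was not used.

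Counts were fitted over the whole table in edgeR 4.0.16 (R 4.3.3): genes passing filterByExpr (minimum count 10) were kept (16117 of 26334), libraries were scaled by TMM, and the quasi-likelihood test was applied with Benjamini-Hochberg adjustment, called below 0.05. The SE is the size of the log2 fold change divided by the square root of the F statistic. CPM and RPKM were computed from the counts with TMM-effective library sizes and no prior count. The scripts were tested on simulated data. DESeq2 1.42.0, edgeR's exact test, other scalings, other filters, a replicate block and leaving out each library were the alternatives. Levels carry counting error as well as the spread of libraries, which matters for genes with few reads.

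Genes named in full are WDR5, all replacement genes tested, the 15 HIST genes of highest mean CPM, up to 5 HIST genes per direction with the lowest adjusted p, and up to 5 supply and 3 S phase genes per direction; other histone genes are named because they belong to the set, and LSM11, CASP8AP2, ERI1, NPAT, SLBP and CENPA were named outside this rule for their function, after the values had been seen. The histone genes and the gene lists were chosen with earlier results of these data known. Comparing counts between libraries of a group found no library deposited more than once. Promoters are RefSeq (GRCh38.p14) and stem-loops are from GENCODE transcripts (GRCh38); coordinates of these builds were not mixed.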

Additional observations from a re-analysis of the deposited data

How the results depend on the processing

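The counts of HIST genes called stayed between 10 and 16 higher and at 2 lower under every alternative run, and replacement genes at 2 or 3 higher and 5 lower except with the fold limit added. DESeq2 called 10 HIST genes higher. Over 622 refits of 48 named genes, 591 kept direction and side of the threshold, 29 lost it, 2 gained it and none reversed. Scaling to library totals alone moved the median log2 fold change to -0.44 for replacement genes, -0.068 for all genes, -0.34 for the supply list and -0.71 for the S phase list, the log2 ratio of the replacement sum from -0.15 to -0.21, and the supply genes called higher to 2. Without the count filter the medians were 0.40 for HIST, -0.032 for replacement and 0.0087 for all genes, and with genes over 0.5 RPKM in either group the HIST median was 0.70; other genes were tested under these settings. With an absolute log2 fold change of 0.6 added, 0 replacement genes were higher and 2 lower, 1751 of all genes were higher and 1939 lower, 0 supply genes were higher and 11 lower, and 0 S phase genes were higher. Leaving out each library in turn gave 10 to 15 HIST genes higher, HIST medians from 0.50 to 0.73, replacement medians from -0.41 to -0.26, log2 ratios of the replacement sum from -0.16 to -0.13 and 2 to 4 supply genes higher. Where no construction is named the cause was not tested. Depth limits the H3, H4 and untested genes most, with often under 60 reads per library.

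The replicate numbers paired the libraries at most in part. Deviations from the group means correlated at 0.37, 0.036 and 0.12 for equal numbers, against -0.31 to 0.21 for unequal numbers. The libraries numbered 1 correlated best with each other, but not every library correlated best with its own number. With the replicate number as a block, 13 HIST genes were higher and 2 lower, 3 replacement genes were higher and 5 lower, and 4901 and 5511 of all genes were called against 4291 and 4821 without it.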

Other observations

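Among the H2A and H2B genes that were tested and had a RefSeq promoter, 8 held the octamer letters ATTTGCAT, of which 3 were higher and 2 lower in shWDR5 with a median log2 fold change of 0.32, and 5 did not, of which 2 were higher and none was lower with a median of 0.41. Of all genes tested, 26.6% were higher and 29.9% lower. Both HIST genes that were lower, HIST2H2AC and HIST1H2BH, were among the 8, the larger group. This split was made after their values had been seen and was not tested.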
